A study of Mus musculus with 6 samples.

Results

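The 9 genes described here are the transcription factor genes Rora, Maf and Ahr, the cytokine genes Il17a, Il17f and Il22, the receptor genes Il23r and Il6ra, and Basp1, which encodes a membrane-associated protein. They were chosen by symbol as genes of the T helper 17 (Th17) programme, and all 9 were found among the 39179 gene identifiers of the count files through GENCODE M21 (GRCm38). The libraries were made from polyA RNA of induced regulatory T cells (Tregs), cultured for 3 days with coated anti-CD3, anti-CD28, TGF-β1 (5 ng/ml) and IL-2 (40 ng/ml). The starting cells were naive CD4+ cells of the spleen of 6-week-old wild-type C57BL/6 mice. In 3 libraries the medium held DEL-1-Fc, a fusion of the secreted integrin-binding protein DEL-1 to an antibody Fc part, and in the other 3 it held Fc alone. All 6 cultures therefore share the same Treg-inducing mixture, and no Th17-inducing culture was part of the comparison. The labels do not say whether replicates were separate animals or cultures, so p-values measure the spread between these libraries only, which may be technical.

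Th17 cells and induced Tregs both arise from naive CD4+ T cells under TGF-β. IL-6, acting through its receptor chains Il6ra and Il6st and the transcription factor STAT3, turns the cells toward Th17, where ROR nuclear receptors such as RORα drive the IL-17 genes, whereas IL-2 with TGF-β favours Tregs. The factors c-Maf and AHR act in Th17 cells and in subsets of Tregs, and IL-23 sustains Th17 cells that carry its receptor.

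Total counts were 33364166, 55236703 and 58075983 in DEL-1-Fc and 57391981, 61967687 and 55318383 in Fc, in replicate order. DEL-1-Fc replicate 1 was the shallowest library and stood farthest from its group: the chi-square between libraries, divided by its degrees of freedom, was 65.4 and 52 for its pairs within the group, 35 for DEL-1-Fc replicates 2 and 3 and 19.7 to 21.6 among Fc libraries. Levels are given as CPM, a gene's count relative to the TMM-scaled total of its library, unless another scale is named. The cells carried T cell and Treg transcripts in both groups, with Cd4 at 642.8 ± 27.1 CPM with DEL-1-Fc and 661.2 ± 33.4 CPM with Fc, and Foxp3 at 523.3 ± 59.7 and 359.5 ± 50.1 CPM (SD, n = 3 each). The T cell receptor genes Trbc1 and Trbc2 rose (log2 fold changes 0.39 and 0.43) and Ctla4 fell (-0.30), and all but Trbc2 lost their calls in some fits that left out a library, Foxp3 included. A log2 fold change is DEL-1-Fc over Fc from edgeR's quasi-likelihood test, called at a Benjamini-Hochberg adjusted p under 0.05 over all genes tested.

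Of the 9 genes, 6 passed the low-count filter (a minimum count of 10 scaled to the median library size) and 3 did not. Il17f, Maf and Il6ra rose, Basp1 fell, and Ahr and Rora did not pass the test. Il17a, Il22 and Il23r had too few counts to be tested. Across the transcriptome 12.6% of 14928 tested genes were called (6.4% higher and 6.22% lower in DEL-1-Fc), so the 4 calls among 6 tested genes are read against that share, and the genes were picked with results of these data known. In 5 of the 6 tested genes the libraries of the groups did not overlap, which held for 34.8% of all tested genes.

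The start regions of the IL-17 genes and of Il23r are shown because these are genes on which ROR factors act in Th17 cells, and because they ended at very different levels here. RefSeq (GRCm38.p6) gives a window of 250 bases before to 50 bases after the start for 7 of the 9 genes, all but Maf and Ahr. The windows were searched on both strands for AGGTCA, the core that ROR proteins bind, for TGCTGA, a core of MAF sites, for GCGTG, the core of AHR sites, and for TTCNNNGAA, the STAT site. The 250 bases before the start follow 5′ to 3′ on the gene's strand, with matches in capitals, for Il17f at chr1:20784271-20784520 (minus strand), Il17a at chr1:20730655-20730904 (plus strand) and Il23r at chr6:67491856-67492105 (minus strand).
Il17f: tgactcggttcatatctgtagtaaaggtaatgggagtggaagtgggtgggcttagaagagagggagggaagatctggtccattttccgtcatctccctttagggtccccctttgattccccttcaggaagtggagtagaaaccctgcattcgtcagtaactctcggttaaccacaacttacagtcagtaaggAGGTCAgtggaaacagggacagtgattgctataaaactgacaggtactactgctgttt
Il17a: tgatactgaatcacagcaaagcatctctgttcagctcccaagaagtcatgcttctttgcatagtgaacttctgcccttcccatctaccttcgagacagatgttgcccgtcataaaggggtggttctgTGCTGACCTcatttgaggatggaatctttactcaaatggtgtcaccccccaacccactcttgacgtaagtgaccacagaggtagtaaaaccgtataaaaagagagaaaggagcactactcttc
Il23r: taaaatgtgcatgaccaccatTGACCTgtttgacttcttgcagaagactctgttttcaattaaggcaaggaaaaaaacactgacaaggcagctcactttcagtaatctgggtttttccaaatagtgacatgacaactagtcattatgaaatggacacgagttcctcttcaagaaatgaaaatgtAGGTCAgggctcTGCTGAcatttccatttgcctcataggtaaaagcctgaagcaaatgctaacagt

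AGGTCA or its reverse complement was found in 3 of the 7 windows, those of Il17f, Il17a and Il23r, and in 16.3% of 32851 mouse promoter windows of the same length. The windows printed are thus the ones with this match. Those of the cytokine gene Il22 and of Basp1, which held none of the sequences searched, are not printed. Il17f held 1 match, beginning at base -58 counted from the start, and Il23r held matches beginning at -229 and -66. In Il17a the match begins at -120 and shares 3 bases with a TGCTGA match beginning at -123. TGCTGA was also found in the windows of Il23r and Il6ra (3 of 7 with Il17a, against 19.5% of all windows), GCGTG in those of Rora and Il6ra (2 of 7, against 32.4%), and TTCNNNGAA in 0 of 7, against 8.3%. In GENCODE the Il17f gene extends upstream of the RefSeq start, and 26 of the 250 bases shown lie in an Il17f exon. These are matches of letters in a short window and say nothing about binding.

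Among the 6 tested of the 9 genes, Il17f and Maf had the largest changes. Il17f, which encodes the Th17 cytokine IL-17F, had 232, 313 and 308 counts in DEL-1-Fc libraries and 92, 93 and 103 counts in Fc libraries, in replicate order. Scaled for depth these were 7.07, 5.54 and 5.19 CPM with DEL-1-Fc and 1.62, 1.52 and 1.88 CPM with Fc. Every DEL-1-Fc library lay above every Fc library, and the shallow DEL-1-Fc replicate 1 was the highest. The means were 5.93 ± 0.998 CPM with DEL-1-Fc and 1.67 ± 0.184 CPM with Fc (SD, n = 3 each), a rise of 3.54-fold (log2 fold change 1.82, SE 0.161, edgeR adjusted p = 0.000236). With any single library left out the log2 fold change stayed between 1.68 and 1.91 and was called each time. Il17f (ENSMUSG00000041872) spans 20777146 to 20790617 on the minus strand of chromosome 1, and none of the 31-base words of its longest transcript occurs in another annotated gene.

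**Figure D1:**
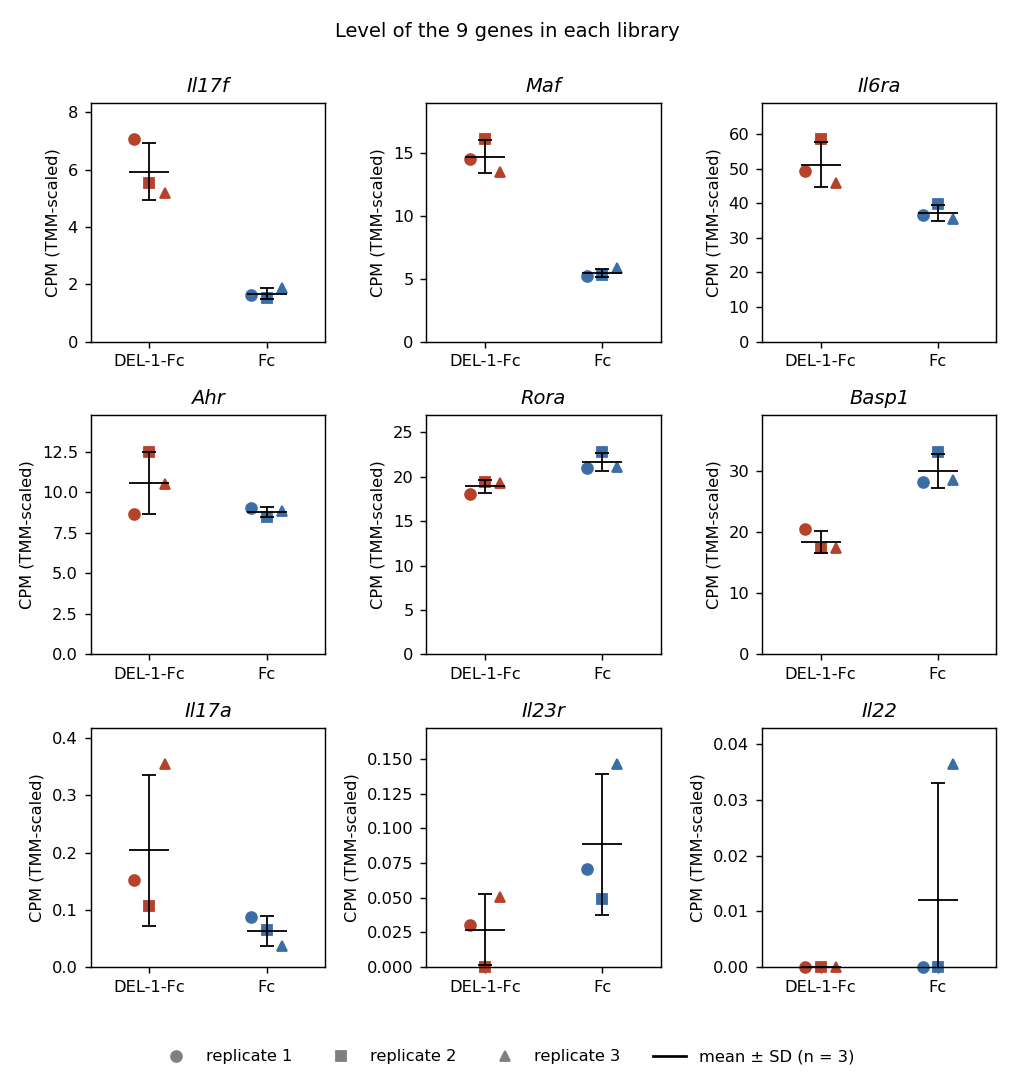
Level of each of the 9 genes as TMM-scaled CPM (linear axes from 0), in the 3 DEL-1-Fc libraries (red, left) and the 3 Fc libraries (blue, right). Symbols mark the replicate number, and bars give the mean and SD. Il17f lay between 5.19 and 7.07 CPM with DEL-1-Fc and between 1.52 and 1.88 CPM with Fc, while Il23r and Il22 stayed under 0.15 CPM in every library.

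Il17a, the neighbouring cytokine gene of the same family, was close to the detection limit. It had 5, 6 and 21 counts in DEL-1-Fc and 5, 4 and 2 counts in Fc, or 0.152, 0.106 and 0.354 CPM against 0.0881, 0.0653 and 0.0364 CPM. The groups did not overlap, but the DEL-1-Fc mean rested largely on replicate 3: it was 0.204 ± 0.132 CPM with all 3 libraries and 0.129 CPM without replicate 3, against 0.0633 ± 0.0259 CPM in Fc (SD, n = 3). A two-sided exact permutation test of the 6 values gave p = 0.1, the smallest that 3 against 3 allows. When the filter was dropped so that the gene entered the edgeR fit, its log2 fold change was 1.68 (SE 0.601) with an adjusted p of 0.102. Il17a (ENSMUSG00000025929) spans 20730905 to 20734496 on the plus strand of chromosome 1, 42.6 kb from Il17f, and shares none of its 31-base words with another annotated gene.

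Il17a made up a small part of the summed Il17a and Il17f counts in every library. Counts are not scaled for length, and the merged exons hold 1171 bases in Il17a and 2022 in Il17f. The shares below are therefore not shares of transcripts, and levels per length are given further on. Of the summed counts of Il17a and Il17f, Il17a was 3.62% in DEL-1-Fc (32 of 885 counts, exact 95% interval 2.49 to 5.07%) and 3.68% in Fc (11 of 299 counts, 1.85 to 6.49%). Per library the share was 2.11, 1.88 and 6.38% in DEL-1-Fc and 5.15, 4.12 and 1.9% in Fc. The library ranges overlap, and the intervals cover counting error only.

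The receptor and cytokine of the later Th17 stage were at or near 0. Il22, which encodes the epithelial-acting cytokine IL-22, had 0 counts in each DEL-1-Fc library and 0, 0 and 2 counts in Fc (two-sided exact permutation p = 1). The limit that a count of 0 allows, 3 counts, equals 0.0914 CPM for the shallowest DEL-1-Fc library and 0.049 CPM for the deepest Fc library. Il22 (ENSMUSG00000074695, chromosome 10, 118204942 to 118210047, plus strand) shares 53.6% of its 31-base words with the copy Iltifb, so reads could have been split or dropped there. Il23r, the IL-23-specific receptor chain, had 1, 0 and 3 counts in DEL-1-Fc and 4, 3 and 8 in Fc, or 0.027 ± 0.0255 and 0.0884 ± 0.0508 CPM (SD, n = 3 each), and the groups overlapped (two-sided exact permutation p = 0.2, with 0.1 the smallest possible). Il23r (ENSMUSG00000049093) spans 67422932 to 67491855 on the minus strand of chromosome 6. Differences of Il22 and Il23r between the groups were not detectable at this depth.

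Cells other than CD4+ T cells can make IL-17, so markers of such cells are set beside the Il17f result. Of 10 markers of γδ T cells, innate lymphoid cells and NKT or MAIT cells, 9 were measured and 5 tested. The marker without a value was Trdc, the δ-chain constant gene. Their summed level was 6.98 to 8 CPM with DEL-1-Fc and 3.95 to 4.50 CPM with Fc. The γ-chain constant genes Tcrg-C2 (2.39 ± 0.684 CPM with DEL-1-Fc and 1.07 ± 0.157 CPM with Fc, SD, n = 3 each, edgeR adjusted p = 0.0116) and Tcrg-C4 (1.38 ± 0.422 and 0.495 ± 0.0843 CPM, adjusted p = 0.00702) rose, and Tcrg-C2 did not pass when Fc replicate 2 was left out (adjusted p = 0.0576). Tcrg-C1 (log2 fold change 1.33, SE 0.427), Kit (0.48, SE 0.147) and Blk (-0.45, SE 0.533) did not pass. Tcrg-C1 passed as higher when Fc replicate 3 was left out (1.89, edgeR adjusted p = 0.0421). Zbtb16, the factor of NKT and MAIT cells, had 2, 0 and 2 counts in DEL-1-Fc and 12, 4 and 6 in Fc, and the γδ T cell factor Sox13 measured 0.134 ± 0.0428 and 0.137 ± 0.0372 CPM. The NK and innate lymphoid marker Ncr1 had 0 counts in all 6 libraries, and Klrb1c 0 or 1. The part of such cells in the Il17f result was not tested. In bulk RNA, more cells with a transcript and more transcript per cell cannot be told apart.

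Of the transcription factor genes Maf, Ahr and Rora, Maf alone passed the test with all libraries. Maf, which encodes c-Maf, had 477, 912 and 801 counts in DEL-1-Fc and 298, 324 and 322 counts in Fc. In CPM these were 14.5, 16.1 and 13.5 in DEL-1-Fc against 5.25, 5.29 and 5.86 in Fc, so the lowest DEL-1-Fc library was more than 2-fold above the highest Fc library. Maf rose 2.69-fold (log2 fold change 1.43, SE 0.105, edgeR adjusted p = 0.000103), with means of 14.7 ± 1.32 CPM with DEL-1-Fc and 5.47 ± 0.344 CPM with Fc (SD, n = 3 each). Over all 15 alternatives its log2 fold change ranged from 1.36 to 1.49 and was called in each. Maf (ENSMUSG00000055435) spans 115682942 to 115707794 on the minus strand of chromosome 8. Its exons share 440 bases with the antisense gene Gm15655, which was listed at 0 counts in all 6 libraries, and the strand setting of the counting is not given in the sources used here.

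Ahr, which encodes the ligand-activated aryl hydrocarbon receptor, measured 8.68, 12.5 and 10.5 CPM with DEL-1-Fc and 9.02, 8.45 and 8.85 CPM with Fc. The groups overlapped through DEL-1-Fc replicate 1, which lay among the Fc libraries, while DEL-1-Fc replicates 2 and 3 lay above them. With all libraries the log2 fold change was 0.27 (SE 0.133, edgeR adjusted p = 0.231). Without DEL-1-Fc replicate 1 it was 0.39 (adjusted p = 0.0178) and passed. Over all alternatives the log2 fold change ranged from 0.13 to 0.39 and the adjusted p from 0.0178 to 0.509. Ahr (ENSMUSG00000019256) spans 35497974 to 35535038 on the minus strand of chromosome 12 and shares 127 exon bases with the antisense gene Gm48236, which was not analysed here.

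Rora, which encodes the nuclear receptor RORα, measured 18.0, 19.4 and 19.3 CPM with DEL-1-Fc and 21, 22.8 and 21.1 CPM with Fc. All 3 DEL-1-Fc libraries lay below all 3 Fc libraries, but by a small distance: the means were 18.9 ± 0.784 CPM with DEL-1-Fc and 21.6 ± 1.01 CPM with Fc (SD, n = 3 each). The log2 fold change of -0.19 (SE 0.0734) did not pass (edgeR adjusted p = 0.132) and did not pass under any of 15 alternatives (adjusted p from 0.118 to 0.417). Rora (ENSMUSG00000032238) spans 68653786 to 69388246 on the plus strand of chromosome 9, and the antisense gene Gm15511, which shares 82 of its exon bases, had 0 to 2 counts in any library.

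**Figure D2:**
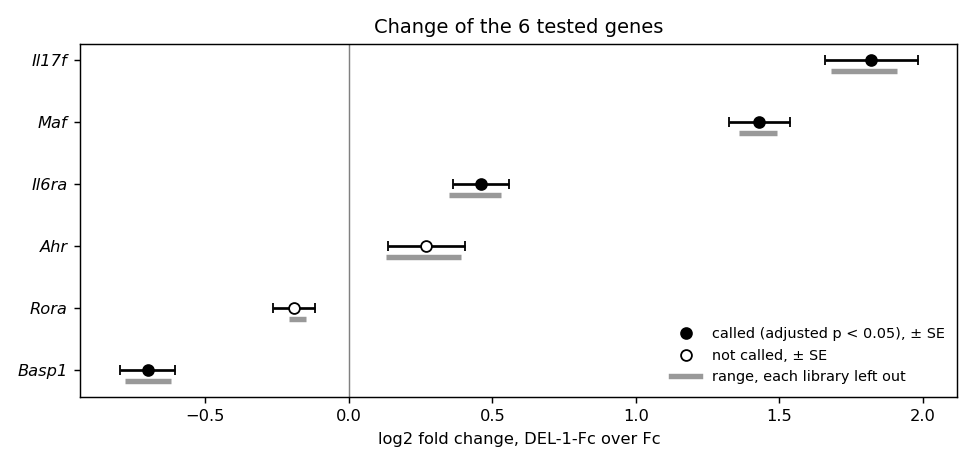
Log2 fold change, DEL-1-Fc over Fc, of the 6 tested genes with its SE (points and thin bars), filled where the edgeR adjusted p was under 0.05, and the range over fits that left out each library in turn (grey bars). Il17f (1.82) and Maf (1.43) lay far above 0, Il6ra (0.46) nearer to it, and Basp1 (-0.70) below it, while Ahr and Rora were not called.

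Il6ra and Basp1 moved in opposite directions. Il6ra, the IL-6-binding receptor chain, measured 49.2, 58.5 and 45.8 CPM with DEL-1-Fc and 36.5, 39.9 and 35.4 CPM with Fc, with no overlap between the groups. It rose 1.37-fold (log2 fold change 0.46, SE 0.097, edgeR adjusted p = 0.0158), with means of 51.2 ± 6.58 CPM with DEL-1-Fc and 37.3 ± 2.31 CPM with Fc (SD, n = 3 each). It did not pass when Fc replicate 1 (0.44, adjusted p = 0.086) or Fc replicate 3 (0.42, adjusted p = 0.0793) was left out. Il6ra (ENSMUSG00000027947) spans 89864059 to 89913196 on the minus strand of chromosome 3, where its exons share 242 bases with the antisense gene Gm42809, which was not analysed here.

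Basp1, a myristoylated protein of the inner cell membrane, had 673, 986 and 1034 counts in DEL-1-Fc and 1600, 2030 and 1564 counts in Fc. It measured 20.5, 17.4 and 17.4 CPM with DEL-1-Fc and 28.2, 33.1 and 28.5 CPM with Fc, again without overlap. It fell to 18.5 ± 1.77 CPM with DEL-1-Fc, against 29.9 ± 2.77 CPM with Fc (SD, n = 3 each; a log2 change of -0.70, SE 0.0961, edgeR adjusted p = 0.00194), and the call held in each of the 6 fits that left out a library (log2 fold change from -0.78 to -0.62). Its membrane relatives Marcks (log2 fold change 0.16, SE 0.0887), Marcksl1 (-0.13, SE 0.0788) and Gap43 (0.31, SE 0.19) did not pass. Without DEL-1-Fc replicate 1, 1 of these relatives, Marcksl1, passed as lower. Basp1 (ENSMUSG00000045763) spans 25363277 to 25413764 on the minus strand of chromosome 15.

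Levels of different genes were compared per length, as RPKM, the CPM value divided by the kilobases of merged exons. In DEL-1-Fc the order was Basp1 (9.19 ± 0.881), Il6ra (5.92 ± 0.761), Il17f (2.93 ± 0.494), Maf (1.79 ± 0.16), Ahr (1.72 ± 0.312) and Rora (1.45 ± 0.06), followed by Il17a (0.174 ± 0.113), Il23r (0.0109 ± 0.0102) and Il22 at 0 (SD, n = 3). In Fc it was Basp1 (14.9 ± 1.38), Il6ra (4.31 ± 0.267), Rora (1.65 ± 0.0774), Ahr (1.42 ± 0.0473), Il17f (0.827 ± 0.0912) and Maf (0.663 ± 0.0418), followed by Il17a (0.054 ± 0.0221), Il23r (0.0355 ± 0.0204) and Il22 (0.0109 ± 0.0189). Il17f and Maf stood above Ahr and Rora in DEL-1-Fc and below them in Fc. In DEL-1-Fc the library ranges of Maf and Ahr, of Ahr and Rora, and of Il23r and Il22 overlapped. In Fc those of Il17a and Il23r and of Il23r and Il22 overlapped, and no other neighbours in either order did. The order was the same with raw library totals.

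**Figure D3:**
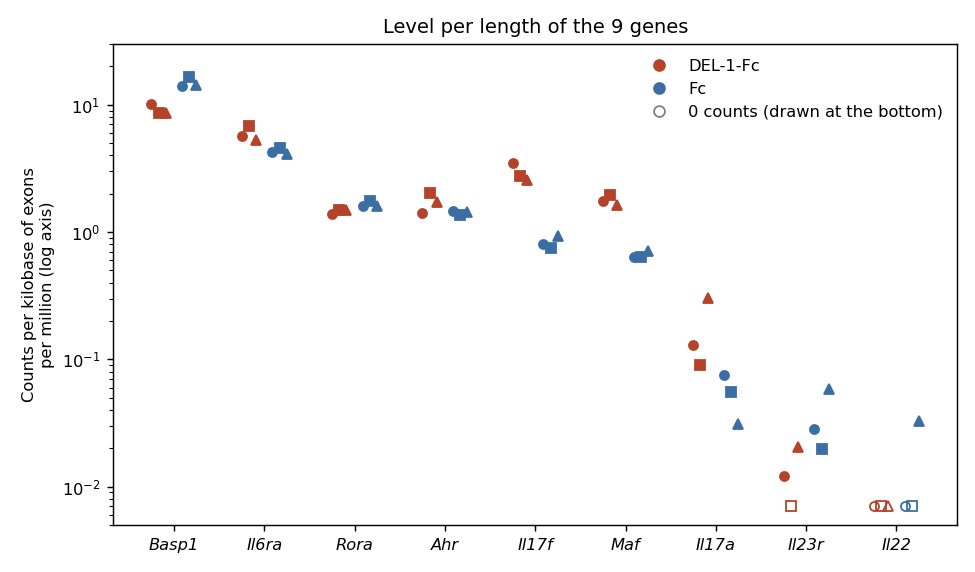
Level per length of the 9 genes in each library (log axis, RPKM; red DEL-1-Fc, blue Fc, ordered by the Fc mean), with libraries at 0 counts drawn as open symbols at the bottom. Basp1 and Il6ra were the highest genes in both groups, and Il17f and Maf lay above 1.6 in each DEL-1-Fc library and below 1 in each Fc library.

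Cyp1a1 and Ahrr, both induced by AHR, rose, while Ahr itself did not pass. Of 14 genes listed as AHR partners or targets, 10 were tested, of which 2 rose, 1 fell and 7 did not pass. Over all genes tested, 6.4% were called higher and 6.22% lower, the shares against which this and the following lists are read. The median log2 fold change was 0.12 in the list and 0.01 over all genes tested. Cyp1a1, the classical AHR-induced enzyme, had 54, 72 and 64 counts in DEL-1-Fc and 23, 10 and 18 in Fc. It rose 4.41-fold (log2 fold change 2.14, SE 0.319, edgeR adjusted p = 0.00294), at 1.33 ± 0.288 CPM with DEL-1-Fc and 0.299 ± 0.124 CPM with Fc (SD, n = 3 each). Ahrr, the AHR-induced repressor of AHR, measured 1.46, 1.42 and 1.53 CPM with DEL-1-Fc and 0.652, 0.506 and 0.82 CPM with Fc (log2 fold change 1.16, SE 0.207, adjusted p = 0.0073). Both calls held in every fit that left out a library, but both genes are low and neither reached the stricter filter of 5 CPM.

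The AHR-induced enzyme gene Cyp1b1 was below the filter, with 10, 8 and 11 counts in DEL-1-Fc and 0, 5 and 4 in Fc. Tiparp, another AHR target, had a log2 fold change of 0.13 (SE 0.104, edgeR adjusted p = 0.453) and Nqo1 of 0.65 (SE 0.217, adjusted p = 0.0875). The AHR partner Arnt (-0.06, SE 0.068) did not pass, and the chaperone gene Hsp90aa1 fell (-0.31, SE 0.0717, adjusted p = 0.0241). The Hsp90aa1 call was lost with the replicate number as a block (adjusted p = 0.0543) and on leaving out DEL-1-Fc replicate 3 or any single Fc replicate (adjusted p from 0.0786 to 0.119).

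**Figure D4:**
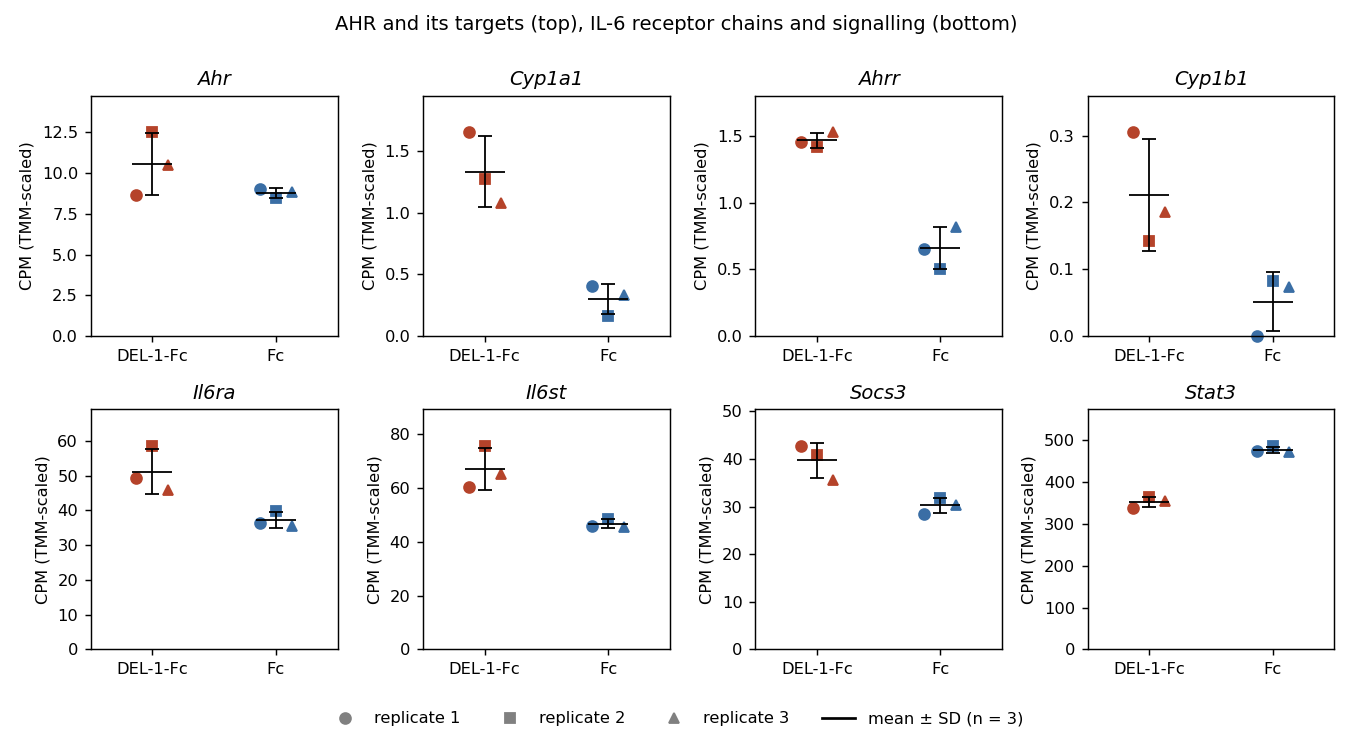
TMM-scaled CPM (linear axes from 0) in each library for Ahr and 3 AHR-induced genes (top) and for the IL-6 receptor chains, Socs3 and Stat3 (bottom), DEL-1-Fc in red at the left and Fc in blue at the right, with the mean and SD. Cyp1a1 and Ahrr separated the groups while Ahr did not, and Il6ra, Il6st and Socs3 were higher in DEL-1-Fc where Stat3 was lower.

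In the IL-6 and IL-23 pathway, both IL-6 receptor chains rose and the shared signal transducer Stat3 fell. Of 19 listed genes besides Il6ra, 15 were tested, of which 2 rose, 4 fell and 9 did not pass (median log2 fold change -0.08). Il6st, the signalling chain gp130, measured 60.3, 75.7 and 65.4 CPM with DEL-1-Fc and 45.9, 48.7 and 45.7 CPM with Fc (log2 fold change 0.52, SE 0.0872, edgeR adjusted p = 0.00515). Socs3, the feedback inhibitor of IL-6 signalling, rose as well (0.39, SE 0.084, adjusted p = 0.0169). Stat3 measured 337.9, 362.9 and 354.3 CPM with DEL-1-Fc and 472.2, 485.0 and 471.2 CPM with Fc, and the groups were far apart (log2 fold change -0.44, SE 0.0614, adjusted p = 0.00218). It shares 72 exon bases with Stat5a on the other strand.

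Among the genes listed for the IL-23 arm, Il12rb1 and Il23a fell, while Il23r itself was near 0. Il12rb1, the receptor chain that pairs with Il23r and also with the IL-12 receptor chain Il12rb2, fell (log2 fold change -0.44, SE 0.0689, edgeR adjusted p = 0.00368). It measured 162.8 ± 12.3 CPM with DEL-1-Fc and 221.2 ± 4.72 CPM with Fc (SD, n = 3 each). Il12rb2 measured 125.7 ± 29.2 CPM with DEL-1-Fc and 312.6 ± 21.4 CPM with Fc. Whether the Il12rb1 change bears on the IL-23 or the IL-12 receptor was not tested. Il23a, the p19 chain of IL-23, fell at a low level (-1.29, SE 0.253, adjusted p = 0.0111), at 0.592 ± 0.0992 CPM with DEL-1-Fc and 1.44 ± 0.414 CPM with Fc. The kinase gene Tyk2 fell just inside the threshold (-0.23, SE 0.0627, adjusted p = 0.0463) and lost its call with library sizes alone, limma-voom or the replicate block (adjusted p = 0.1, 0.0501 and 0.0693) and on leaving out DEL-1-Fc replicate 3 or any single Fc replicate (0.118 to 0.178). Il6 itself had at most 2 counts in any library. Socs3 did not pass when Fc replicate 1 (adjusted p = 0.0967) or Fc replicate 3 (0.0737) was left out, which left 1 riser in the list.

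Other factors of the Th17 programme changed in both directions. Of 14 tested transcription factor and kinase genes, 1 rose, 6 fell and 7 did not pass, with a median log2 fold change of -0.34. Stat3, among those that fell, was already counted in the IL-6 and IL-23 list. Sgk1, a salt-sensitive kinase that promotes Il23r expression in mouse Th17 cells, was the riser, at 104.1, 106.4 and 105.6 CPM with DEL-1-Fc and 37.4, 44.6 and 47.4 CPM with Fc (log2 fold change 1.29, SE 0.0879, edgeR adjusted p = 7.26e-05). Besides Stat3, the factors Bhlhe40 (-0.96, SE 0.0648), Rbpj, the transducer of Notch signals (-0.55, SE 0.091), and Etv6 (-0.47, SE 0.074) fell. Irf4 and Hif1a, which support Th17 differentiation, also fell (-0.50, SE 0.109, and -0.43, SE 0.103), but the call of each was lost without any single Fc replicate (adjusted p from 0.0634 to 0.105), and that of Hif1a also with library sizes alone (0.0514). Batf, the pioneer partner of Irf4 (-0.25, SE 0.0999, adjusted p = 0.152), and Runx1 (0.26, SE 0.083, adjusted p = 0.0728) did not pass. On leaving out DEL-1-Fc replicate 1, Batf passed as lower (-0.37, edgeR adjusted p = 0.00195) and Runx1 as higher (0.31, adjusted p = 0.0222). Runx1 also passed as higher with DESeq2 (adjusted p = 0.0421). Without DEL-1-Fc replicate 1 the number of risers was 5, and with DESeq2 it was 3.

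Surface and secreted products of Th17 cells also went in both directions. Of 16 listed genes 13 were tested, of which 2 rose, 5 fell and 6 did not pass (median log2 fold change -0.30). The riser Il6st and the faller Il12rb1 were already counted in the IL-6 and IL-23 list. Csf2, which encodes GM-CSF, fell to 26.2 ± 0.527 CPM with DEL-1-Fc, against 100.4 ± 7.76 CPM with Fc (SD, n = 3 each; a log2 change of -1.94, SE 0.0733). Il21r, the IL-21 receptor (-0.68, SE 0.0595), and Il24, a cytokine of the IL-10 family (-1.32, SE 0.23), fell too. Ccr6, the chemokine receptor that marks Th17 cells, fell (-0.53, SE 0.11, edgeR adjusted p = 0.0147) and lost its call without Fc replicate 1 (0.0813) or Fc replicate 3 (0.0567). The risers were Il6st and Ltb, which encodes lymphotoxin β (0.71, SE 0.11). Ccl20, the ligand of Ccr6, had a log2 fold change of 0.23 (SE 0.183), and Il21 and Il1r1 were below the filter.

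**Figure D5:**
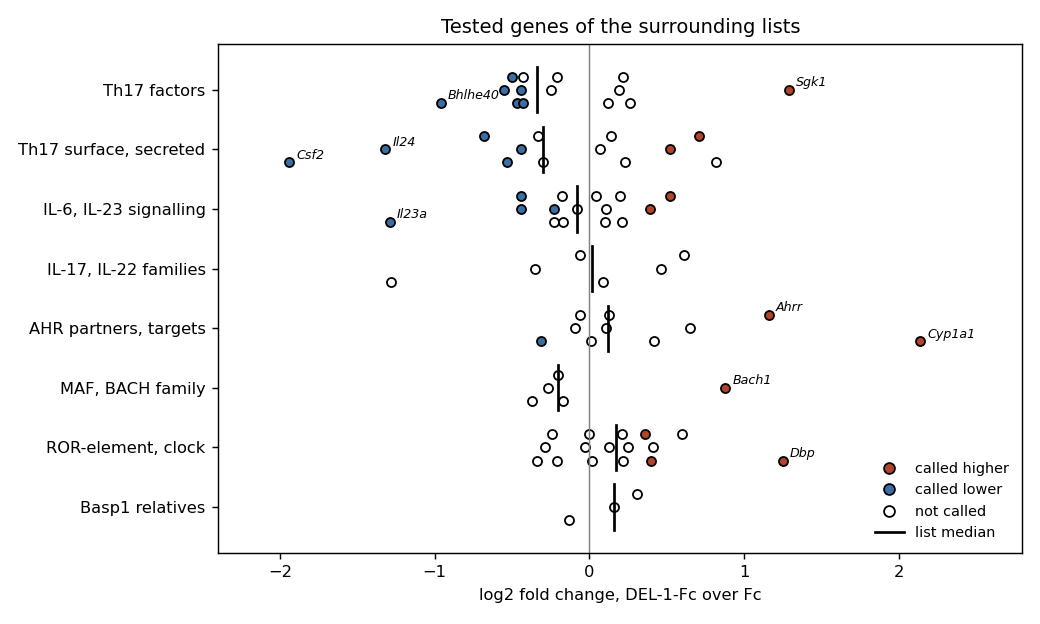
Log2 fold change, DEL-1-Fc over Fc, of every tested gene in 8 lists around the Th17 genes (points, filled red where called higher, blue where called lower and open where not called; vertical lines are list medians, and points are spread vertically only for legibility). Called genes beyond 0.8 in either direction are named. Cyp1a1 (2.14), Sgk1 (1.29) and Dbp (1.25) were the largest rises and Csf2 (-1.94) the largest fall among them.

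RORα activates some clock genes, among them Arntl, through elements that NR1D1 and NR1D2 repress, while other clock genes such as Dbp are driven by CLOCK and BMAL1. Of 17 listed genes of both kinds 16 were tested, of which 3 rose and 13 did not pass (median log2 fold change 0.17), against 12.6% called and 6.4% called higher over all genes tested. Dbp, a clock output factor, rose, at 7.93 ± 1.12 CPM with DEL-1-Fc and 3.34 ± 0.542 CPM with Fc (SD, n = 3 each; 1.25, SE 0.159, edgeR adjusted p = 0.00134), although its exons share 539 bases with Sphk2 on the other strand. Arntl, which encodes the clock factor BMAL1 and is a classical ROR target (0.40, SE 0.0769, adjusted p = 0.01), and Tef (0.36, SE 0.078, adjusted p = 0.0186) rose by less. Nr1d1 (-0.34, SE 0.22), Nr1d2 (0.13, SE 0.109), Clock (0.00, SE 0.107), Npas2 (-0.03, SE 0.0986) and Nfil3 (-0.24, SE 0.0977) did not pass. The number of risers was 7 without DEL-1-Fc replicate 1 and 1 without Fc replicate 1 or without Fc replicate 3. The Arntl call was lost in those last fits (adjusted p = 0.054 and 0.0675), the Tef call on leaving out DEL-1-Fc replicate 3 or any single Fc replicate (0.0507 to 0.107).

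Among the 8 relatives of Maf, 5 were tested. Bach1, a repressor that pairs with small MAF proteins, rose (log2 fold change 0.88, SE 0.0998, edgeR adjusted p = 0.000693), at 18.8 ± 1.93 CPM with DEL-1-Fc and 10.2 ± 0.678 CPM with Fc (SD, n = 3 each). Bach2 (-0.37, SE 0.142) and the small MAF genes Mafg (-0.27, SE 0.0794, adjusted p = 0.0625), Mafk (-0.20, SE 0.0584, adjusted p = 0.058) and Maff (-0.17, SE 0.0841) did not pass. Mafg and Mafk both passed as lower without DEL-1-Fc replicate 1, and Bach2 without DEL-1-Fc replicate 2. Among IL-17 and IL-22 relatives and receptors, 12 were in the files and 6 tested. edgeR, DESeq2 and limma-voom each called 0 of them, 1 had an unadjusted p under 0.05 by edgeR, and 1, Il17rc, passed as lower without DEL-1-Fc replicate 1. Il17ra, the shared IL-17 receptor chain, measured 96.7 ± 5.77 CPM with DEL-1-Fc and 91.0 ± 2.12 CPM with Fc (log2 fold change 0.09, SE 0.0639).

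The genes whose pattern over the 6 libraries lay nearest to each tested gene were found by the Euclidean distance between centred log2 CPM values, among 11360 protein-coding genes. For Il17f they were Ramp1, at a distance of 0.20 log2 units, and Aqp3, at 0.33. For Maf they were Rassf4 (0.18) and Fam198a (0.20), and for Ahr Zfp652 (0.07) and Spata1 (0.12). For Il6ra they were Itga3 (0.11) and Zbtb4 (0.13), for Basp1 Lgals3bp and Tmem184b (both 0.15), and for Rora Otud5 and Tmem209 (both 0.05). With a prior count of 5 in place of 2 all of these stayed among the nearest 2. The 6 points share their libraries and their split into groups, so the distances are a description only.

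Markers of other cell types were low or did not separate the groups, with exceptions. The B cell list summed to 452.9 to 485.5 CPM with DEL-1-Fc and 365.5 to 385.9 CPM with Fc, nearly all of it Ighm (458.0 ± 17.7 and 367.6 ± 11.7 CPM, SD, n = 3 each; edgeR adjusted p = 0.0124, lost without Fc replicate 1 or 3). Cd8a rose (4.06 ± 0.447 and 2.37 ± 0.133 CPM, adjusted p = 0.00607), and Cd8b1 did not pass. Myeloid markers summed to 4.66 to 5.32 CPM with DEL-1-Fc and 4.74 to 5.25 CPM with Fc, and red cell markers to 0.101 to 0.548 and 0.229 to 0.364 CPM. Their part in the changes above was not tested.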

How the data were processed

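The data are 6 polyA RNA-seq libraries, 3 per group. Per the labels' protocols, RNA was taken with Trizol, DNA was removed and BGI prepared the libraries. The authors deposited raw counts of reads per Ensembl gene, and the submitters' processing notes name STAR, HTSeq 0.6.0 and GRCm38 (mm10). For the annotation release, strand setting and multi-mapping reads, the choice is not given in the sources used here. Symbols, coordinates and exon lengths came from GENCODE M21 (GRCm38), which matched 37693 of 39179 identifiers, and promoter windows from RefSeq (GRCm38.p6).

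Counts were tested in R 4.3.3 with edgeR 4.0.16. Low genes were removed with filterByExpr (10 as minimum count, 15 as minimum total), libraries were scaled by TMM, and the quasi-likelihood test was run with robust dispersion and Benjamini-Hochberg adjustment over 14928 genes. The SE came from the size of the log2 fold change over the root of the F statistic. Genes below the filter are given as counts, with an exact permutation test on CPM. The alternatives were DESeq2 1.42.0, limma-voom (limma 3.58.1), RLE, upper-quartile or no scaling factors, 2 other filters, dispersion that was not robust, replicate numbers as a block and each library left out. The fit was also run on counts simulated from its own dispersions, a setting without an outlying library such as DEL-1-Fc replicate 1. The outcome of that run is not reported here, and nothing above rests on it.

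The genes, lists and tests were chosen with earlier results of these data known. Named were all 9 genes, the called genes of each list (at most 4 per direction by p), the nearest 2 genes of each tested gene and the highest or called markers. Irf4, Hif1a, Ccr6, genes named as not passing and flanking genes were named after their values were seen. The symbols Il26 and Trdc were not matched and were not analysed here, and some Th17 genes are not reported here. Replicates of a group had a chi-square of at least 19.7 for each degree of freedom, so none is a copy. The floor of 3 counts covers counting error only.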

Additional observations from a re-analysis of the deposited data

How the results depend on the processing

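The 4 calls among the 9 genes (3 higher, 1 lower) were the same number under all 9 alternatives of test, scaling, filter, dispersion and block, and numbered 3 to 5 with a library left out (2 to 4 higher, 1 lower). Il17f, Maf and Basp1 were called in all 15 alternatives and Rora in none. No direction reversed among the tested ones of the 9 genes. The count over all genes was 1884, against 1394 to 2429 in the first 9 alternatives and 901 to 3003 with a library left out (428 to 1485 higher, 466 to 1518 lower), the highest without DEL-1-Fc replicate 1. The cause of these changes was not tested. With DESeq2, 3 Th17 factors were called higher and 3 MAF relatives lower. Of the MAF relatives, 1 was called lower with the filter of 5 CPM in 3 libraries, with no low-count filter, with no robust dispersion and with the replicate block, and 0 to 2 with a library left out. The AHR list had 0 called higher with the 5 CPM filter, which leaves fewer genes tested, and 0 called lower with the replicate block. With a library left out the lists had 1 to 5 Th17 factors higher, 1 to 3 IL-6 and IL-23 genes higher, 0 to 1 AHR genes lower, 1 to 7 clock genes higher and 0 to 1 lower, 0 to 1 IL-17 relatives lower and 0 to 1 Basp1 relatives lower. The median log2 fold change of all genes stayed between 0.00 and 0.04 across settings. Same-numbered libraries deviated together only weakly (correlations of 0.0163, 0.0885 and 0.0425), against -0.0913 to 0.0382 for libraries of unlike number. The values 0.0885 and 0.0425 were the highest of all, but DEL-1-Fc replicate 1 correlated more with Fc replicate 3 (0.0382) than with its own number. These values do not settle whether the numbers are pairs, and the main fit did not take them as pairs. The replicate block moved the count over all genes to 1510 and left the 4 calls in place. Depth limits Il17a, Il22 and Il23r, whose libraries held 0 to 21 counts.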

Other observations

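Of 11 tested protein-coding genes that flank the Th17 genes on the chromosome, 1 rose, 2 fell and 8 did not pass, against 12.6% called over all genes tested. Mcm3, a replication factor gene 12.4 kb from Il17f, measured 510.2 ± 14.2 CPM with DEL-1-Fc and 486.0 ± 1.63 CPM with Fc (SD, n = 3 each; a log2 change of 0.07, SE 0.0602, edgeR adjusted p = 0.495), and Pkhd1 on the far side of Il17a was at 0 counts. Il12rb2, the IL-12 receptor chain gene 46.7 kb from Il23r, fell (log2 fold change -1.31, SE 0.165, adjusted p = 0.00256). Agr3, 391 kb from Ahr, fell at a low level (1.10 ± 0.173 CPM with DEL-1-Fc and 3.40 ± 0.231 CPM with Fc; -1.62, SE 0.161, adjusted p = 0.000404). She, 5.22 kb from Il6ra, rose at a low level (2.34 ± 0.615 and 0.417 ± 0.291 CPM; 2.47, SE 0.423, adjusted p = 0.00781). Besides Mcm3, the genes that did not pass were Wwox near Maf (0.16, SE 0.0922), Vps13c (-0.25, SE 0.138) and Ice2 (-0.10, SE 0.0988) near Rora, Mdm1 near Il22 (-0.04, SE 0.0708), Snx13 near Ahr (-0.11, SE 0.0882), Myo10 near Basp1 (-0.22, SE 0.079) and Atp8b2 near Il6ra (-0.17, SE 0.0585). Atp8b2 passed as lower with DESeq2 and without DEL-1-Fc replicate 1, and Myo10 without DEL-1-Fc replicate 2.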
